A study of Mus musculus with 12 samples.

Results

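The comparison sets intracranial B16 F1 melanoma from mice that carried both an intracranial and an extracranial tumor and were given anti-PD-1 plus anti-CTLA-4 (3 libraries) against intracranial B16 F1 melanoma from mice that carried the intracranial tumor alone and were given IgG (3 libraries). The members were chosen by the labels for tumor presence and treatment, and they make up 6 of the 12 RNA-seq libraries of the series. Both factors differ between the groups, so the comparison measures their joint effect and cannot assign it to either one. The remaining groups are intracranial tumor alone with anti-PD-1 plus anti-CTLA-4, and both tumors with IgG, again with 3 libraries each. All mice were C57BL/6, received 100000 B16 cells in the brain, and had the brain tumor taken on day 9. The sources used here do not state age, sex, antibody dose and schedule, or the site of the extracranial tumor. The series describes its groups as biological triplicates. B16 F1 is a single transplanted, pigmented mouse melanoma line, so every tumor shares 1 tumor genotype. Below, "therapy" stands for the antibody pair in mice with both tumors and "IgG" for the control antibody in mice with the intracranial tumor alone, unless another group is named.

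PD-1 and CTLA-4 are inhibitory receptors of T cells. CTLA-4 limits costimulation when a T cell is first activated, and PD-1 dampens T cells that meet antigen in tissue, so that antibodies to them release effector T cells. Activated T cells and natural killer cells secrete interferon gamma, which acts in part through IRF1 to raise antigen presentation, guanylate-binding proteins and the chemokines CXCL9 and CXCL10. Regulatory T cells, marked by the transcription factor FOXP3, carry much CTLA-4 themselves and restrain this response.

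Library totals ran from 18427495 to 22294182 counted reads, and 15925 genes passed the filter on low counts. In the quasi-likelihood test of edgeR, 0 of the 15925 genes passed a Benjamini-Hochberg adjusted p of 0.05, although 5452 genes (34.2%) had an unadjusted p below 0.05, of which 2400 were higher (15.1%) and 3052 lower (19.2%). The smallest adjusted p was 0.0537, and 841 genes shared it. The same counts gave 3315 calls in DESeq2 (1583 higher and 1732 lower, 10.6% and 11.6% of the genes with an adjusted p) and 1648 in limma voom (642 higher and 1006 lower, 4.03% and 6.32%). In 2774 genes (17.4%) all 3 therapy libraries lay above all 3 IgG libraries, and in 3694 genes (23.2%) all 3 lay below. These percentages are the background for the counts of gene groups below, in which "no overlap" has this meaning. Because edgeR called no gene, levels are described below by their values, and calls are credited to the tool that made them.

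Several libraries stood apart from their groups. IgG replicate 2 had high interferon and T cell levels, while IgG replicates 1 and 3 did not, and without it edgeR called 2403 genes (1164 higher and 1239 lower, 7.13% and 7.59% of those tested). The second library is IgG replicate 2 from mice with both tumors, which enters this comparison only through the shared estimate of spread, and whose mean log2 level over 13 neuronal genes was 0.25, against 4.44 and 4.93 in its fellow replicates. Without that library edgeR called 4002 genes, 1770 higher and 2232 lower. Replicate 3 of the therapy mice with the intracranial tumor alone had a mean log2 level of 6.29 over the interferon gamma list, against 1.06 and 2.31 in its fellow replicates, and it too enters the shared spread and the interaction terms. Leaving out therapy replicate 1 gave 2385 calls and leaving out both-tumor IgG replicate 3 gave 1207, whereas leaving out any of the other 8 libraries gave 0.

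Promoters are shown for members of the groups that moved together, to set the mitotic genes, lower under therapy, beside interferon gamma response genes. Each sequence lies mostly upstream of the RefSeq transcription start (build GRCm38.p6) and reaches just past it, written 5′ to 3′ on the gene's strand, and capitals mark matches on either strand. In the mitotic promoters the capitals are CCAAT, the core of the site for the factor NF-Y, and TTTGAA, the core of the cell cycle genes homology region. In the interferon promoters they are a pair of GAAA runs with 2 bases of any kind between them, the core of the interferon-stimulated response element, and TTCNNNGAA, the interferon gamma activated site. Plk1 (a mitotic kinase) is at chr7:122159185-122159484, plus strand, and Cdc20 (an activator of the anaphase-promoting complex) at chr4:118437294-118437593, minus strand. Gbp2 (a guanylate-binding protein) is at chr3:142620413-142620712, plus strand, and Irf1 (an interferon-induced transcription factor) at chr11:53769764-53770063, plus strand.
Plk1: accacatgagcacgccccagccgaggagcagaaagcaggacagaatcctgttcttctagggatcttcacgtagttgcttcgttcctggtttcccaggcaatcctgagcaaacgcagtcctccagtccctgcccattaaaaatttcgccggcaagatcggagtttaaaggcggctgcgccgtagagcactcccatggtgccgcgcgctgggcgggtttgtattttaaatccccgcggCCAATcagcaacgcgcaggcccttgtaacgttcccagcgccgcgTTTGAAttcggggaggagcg
Cdc20: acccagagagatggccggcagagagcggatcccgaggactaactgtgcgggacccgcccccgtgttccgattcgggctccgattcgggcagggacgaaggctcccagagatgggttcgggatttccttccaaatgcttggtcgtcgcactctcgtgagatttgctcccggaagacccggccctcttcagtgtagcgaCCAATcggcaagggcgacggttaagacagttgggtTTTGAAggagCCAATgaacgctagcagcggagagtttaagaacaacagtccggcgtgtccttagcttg
Gbp2: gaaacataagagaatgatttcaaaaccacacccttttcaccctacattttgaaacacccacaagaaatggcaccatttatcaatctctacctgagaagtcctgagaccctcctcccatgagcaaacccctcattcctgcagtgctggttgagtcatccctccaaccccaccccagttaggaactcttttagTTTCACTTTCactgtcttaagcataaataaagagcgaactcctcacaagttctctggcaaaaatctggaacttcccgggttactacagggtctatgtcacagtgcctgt
Irf1: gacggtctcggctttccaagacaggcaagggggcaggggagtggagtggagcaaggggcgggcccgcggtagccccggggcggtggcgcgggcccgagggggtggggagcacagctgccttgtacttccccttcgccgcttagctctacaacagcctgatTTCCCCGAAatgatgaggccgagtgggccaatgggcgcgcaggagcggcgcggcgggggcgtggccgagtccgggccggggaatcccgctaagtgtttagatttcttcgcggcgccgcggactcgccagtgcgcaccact
Of the 18 mitotic genes listed, 16 had a window, of which 12 (75%) held TTTGAA and 15 (93.8%) held CCAAT, against 20.2% and 41.1% of all 27025 genes with a window. Among 14 DNA replication genes with a window, 1 held TTTGAA and 9 held CCAAT. Among 14 interferon gamma response genes with a window, 10 (71.4%) held the paired GAAA runs and 7 (50%) held TTCNNNGAA, against 3.99% and 9.55% of all genes. These are matches of letters, and binding was not measured.

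Proliferation genes were lower in the therapy group as a block. All 18 genes of mitosis and all 18 of DNA replication lay lower in every therapy library than in every IgG library (36 of 36, where 23.2% of all genes did so). Their log2 fold changes ran from -1.82 to -1.06 with a median of -1.43, against a median of 0.007 over all genes tested. DESeq2 called all 36 lower and limma voom called 35, while their highest edgeR adjusted p was 0.069. Mki67, which encodes the proliferation antigen Ki-67 (chr7:135689784-135716361), had 124, 35.2 and 81.4 CPM (read counts scaled to library size, with TMM factors) in the therapy libraries, against 300, 167 and 280 CPM in the IgG libraries. The groups did not overlap, and the log2 fold change was -1.63 ± 0.39 (SE, adjusted p 0.0537 in edgeR, n = 3 each). Ccnb1, the cyclin that drives entry into mitosis (chr13:100778650-100786570), had 41.0, 13.2 and 28.1 CPM under therapy and 119, 76.3 and 94.5 CPM under IgG, a log2 fold change of -1.82 ± 0.40 (adjusted p 0.0537). Top2a, which untangles replicated chromosomes, had 240, 90.3 and 195 CPM under therapy and 487, 364 and 412 CPM under IgG. Therapy replicate 2 was the lowest library in each of these 3 genes.

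Genes of DNA replication separated the groups in the same way. Gins2, a subunit of the replicative helicase, had 10.9, 8.11 and 11.4 CPM under therapy and 25.6, 23.3 and 22.6 CPM under IgG (log2 fold change -1.24 ± 0.24). E2f1, a transcription factor of the entry into S phase, had 40.1, 20.2 and 34.9 CPM under therapy and 81.0, 64.6 and 74.6 CPM under IgG (-1.21 ± 0.24). Pola1, the catalytic subunit of DNA polymerase alpha, differed by -1.10 ± 0.25. The mean log2 CPM of the mitotic list was 5.69, 4.04 and 5.23 in the therapy libraries and 6.90, 6.36 and 6.58 in the IgG libraries. That of the replication list was 5.93, 4.56 and 5.47 under therapy and 6.91, 6.50 and 6.68 under IgG, so neither list overlapped. Cdkn1a, the cyclin-dependent kinase inhibitor p21, was also lower, at 62.7, 55.9 and 73.3 CPM under therapy and 175, 185 and 152 CPM under IgG (-1.41 ± 0.38, adjusted p 0.0538). In bulk tissue, fewer cells of a type and less RNA per cell cannot be told apart.

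**Figure D1:**
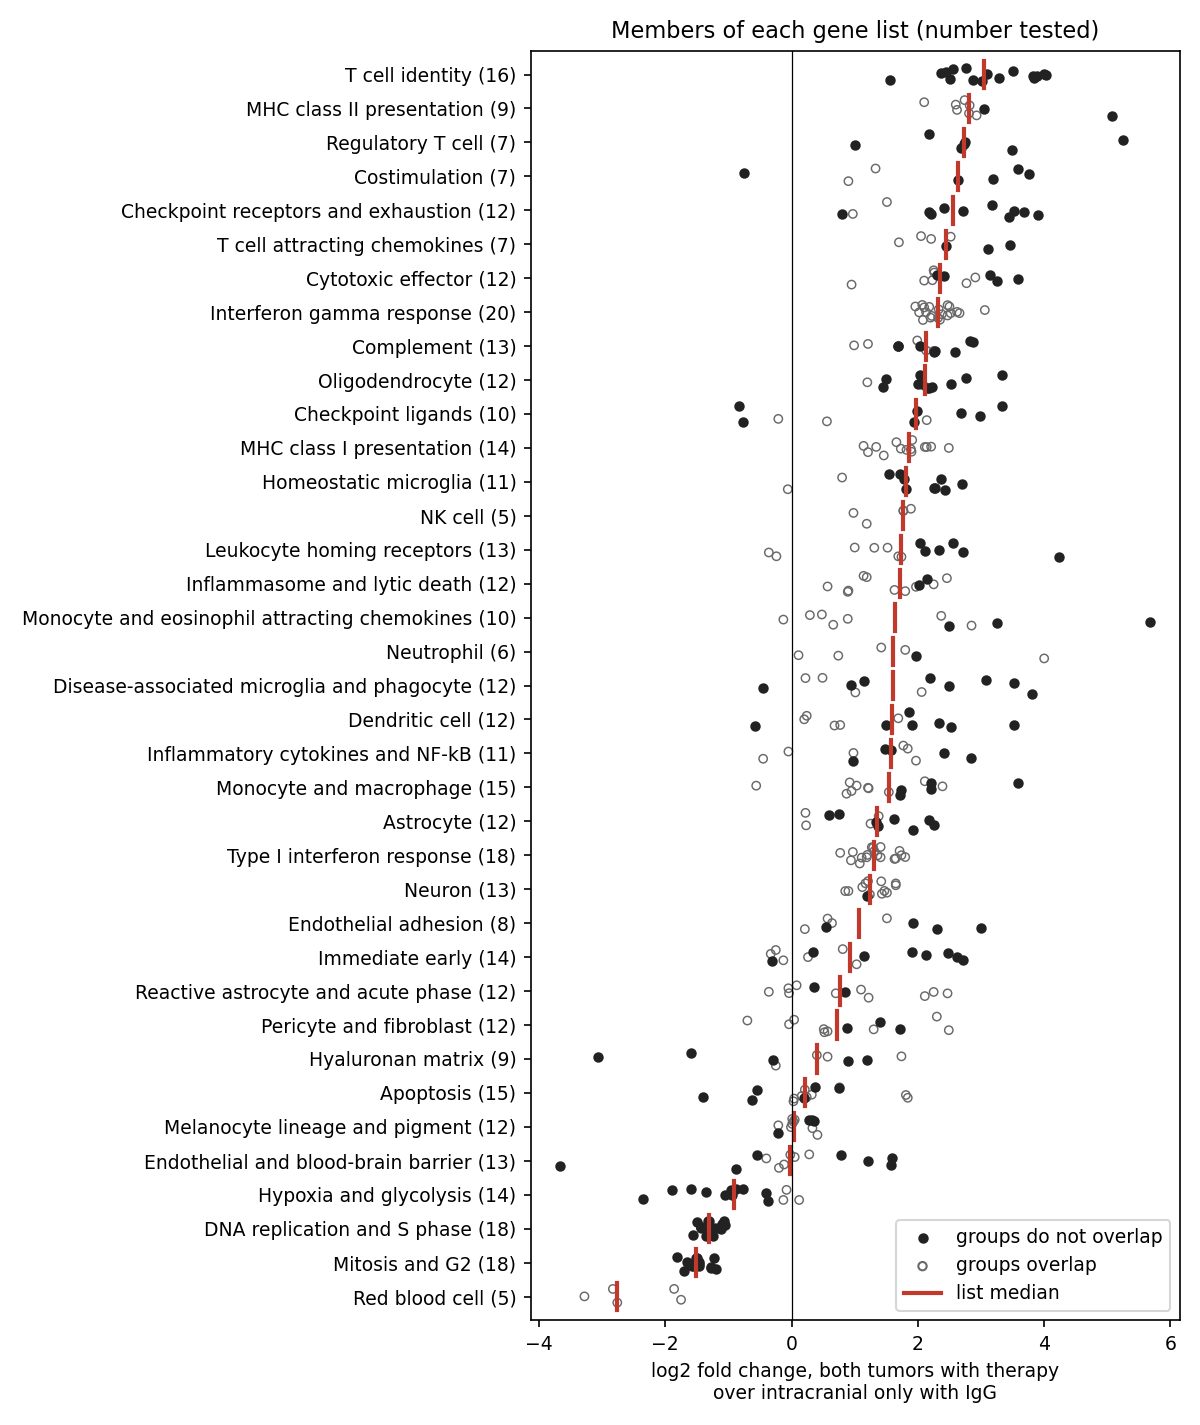
Log2 fold change (therapy with both tumors over IgG with the intracranial tumor alone, x axis) of each tested member of the gene lists, 1 point per gene, filled where the groups' libraries do not overlap, with red bars at list medians. Lists with fewer than 5 tested genes are not drawn. The mitosis and replication lists lie wholly below 0 with filled points, whereas the T cell lists lie above 0 with filled points and the interferon lists above 0 with open ones.

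T cell genes were higher in every therapy library. All 16 tested genes of T cell identity and all 7 tested genes of regulatory T cells showed no overlap (23 of 23, where 17.4% of all genes did), with medians of 3.05 and 2.73 log2 units. DESeq2 called 8 of the 16 and 5 of the 7, against 10.6% of all genes called higher. Cd8a, the coreceptor of cytotoxic T cells (chr6:71373427-71379173), had 7.77, 23.4 and 20.7 CPM under therapy and 0.105, 3.30 and 0.215 CPM under IgG, a log2 fold change of 3.83 ± 1.39 (adjusted p 0.0915 in edgeR, 0.0174 in DESeq2). Cd4, the coreceptor of helper and regulatory T cells, had 4.77, 5.42 and 6.66 CPM under therapy and 0.474, 1.81 and 0 CPM under IgG (2.87 ± 0.93, adjusted p 0.073). IgG replicate 2 was the highest of the IgG libraries for each of the 23 genes and still lay below every therapy library. The mean log2 CPM of the T cell list was 2.35, 3.21 and 3.27 under therapy and -1.91, 1.28 and -2.10 under IgG. Without IgG replicate 2 the median of the T cell list was 5.61 log2 units. EdgeR then called 13 of its 16 genes, where 7.13% of all tested genes were called higher. As that library was singled out by its high T cell levels, a larger difference without it follows from the choice.

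Among the regulatory T cell genes, Foxp3, the lineage factor (chrX:7573644-7595245), had 2.55, 2.19 and 2.76 CPM under therapy and 0.211, 0.619 and 0.269 CPM under IgG, a log2 fold change of 2.75 ± 0.58 (adjusted p 0.0537 in edgeR, 0.00247 in DESeq2). Tnfrsf18, which encodes the costimulatory receptor GITR, had 1.95, 4.63 and 2.94 CPM under therapy and 0.421, 1.14 and 0.537 CPM under IgG (2.17 ± 0.52). Ccr8, a chemokine receptor carried by regulatory T cells in tumors (chr9:120092114-120094906), had 1.00, 1.59 and 2.11 CPM under therapy and 0, 0.103 and 0 CPM under IgG. That is 100 reads over the therapy libraries and 2 over the IgG libraries, a ratio of 44.6 with a 95% interval of 12 to 373 for counting error alone. Gata3, a transcription factor of type 2 helper cells and of some regulatory T cells, named after its values were seen, differed by 2.21 ± 0.62 (adjusted p 0.0564).

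Of the 12 checkpoint receptor genes, 10 were higher with no overlap and DESeq2 called 5, against 17.4% and 10.6% over all genes. Pdcd1, which encodes PD-1, had 4.82, 19.1 and 19.0 CPM under therapy and 0.0527, 2.63 and 0.161 CPM under IgG (3.90 ± 1.36, adjusted p 0.0852). Ctla4 had 2.86, 7.21 and 4.87 CPM under therapy and 0, 1.34 and 0 CPM under IgG (3.45 ± 1.48, adjusted p 0.132). Lag3, an inhibitory receptor that binds MHC class II, had 13, 36.7 and 29.1 CPM under therapy and 1.16, 3.82 and 1.83 CPM under IgG (3.53 ± 0.94, adjusted p 0.0538). The transcripts of both antibody targets therefore had their highest levels in the therapy libraries, and protein was not measured. Cytotoxic genes spread more widely. Gzmb, the granule protease granzyme B, had 10.1, 69.6 and 47.4 CPM under therapy and 0.0527, 27.0 and 0 CPM under IgG, so that IgG replicate 2 lay above therapy replicate 1 (2.23 ± 1.91, adjusted p 0.406). Of the 12 cytotoxic genes 5 had no overlap and DESeq2 called 0 of the 12. Without IgG replicate 2, the highest IgG library for all 12, edgeR called 11, where 7.13% of all tested genes were called higher. As that library was singled out by its high T cell and interferon levels, larger differences without it follow from the choice. Granzyme and Klr genes have close relatives that can share reads, so their single values are uncertain.

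**Figure D2:**
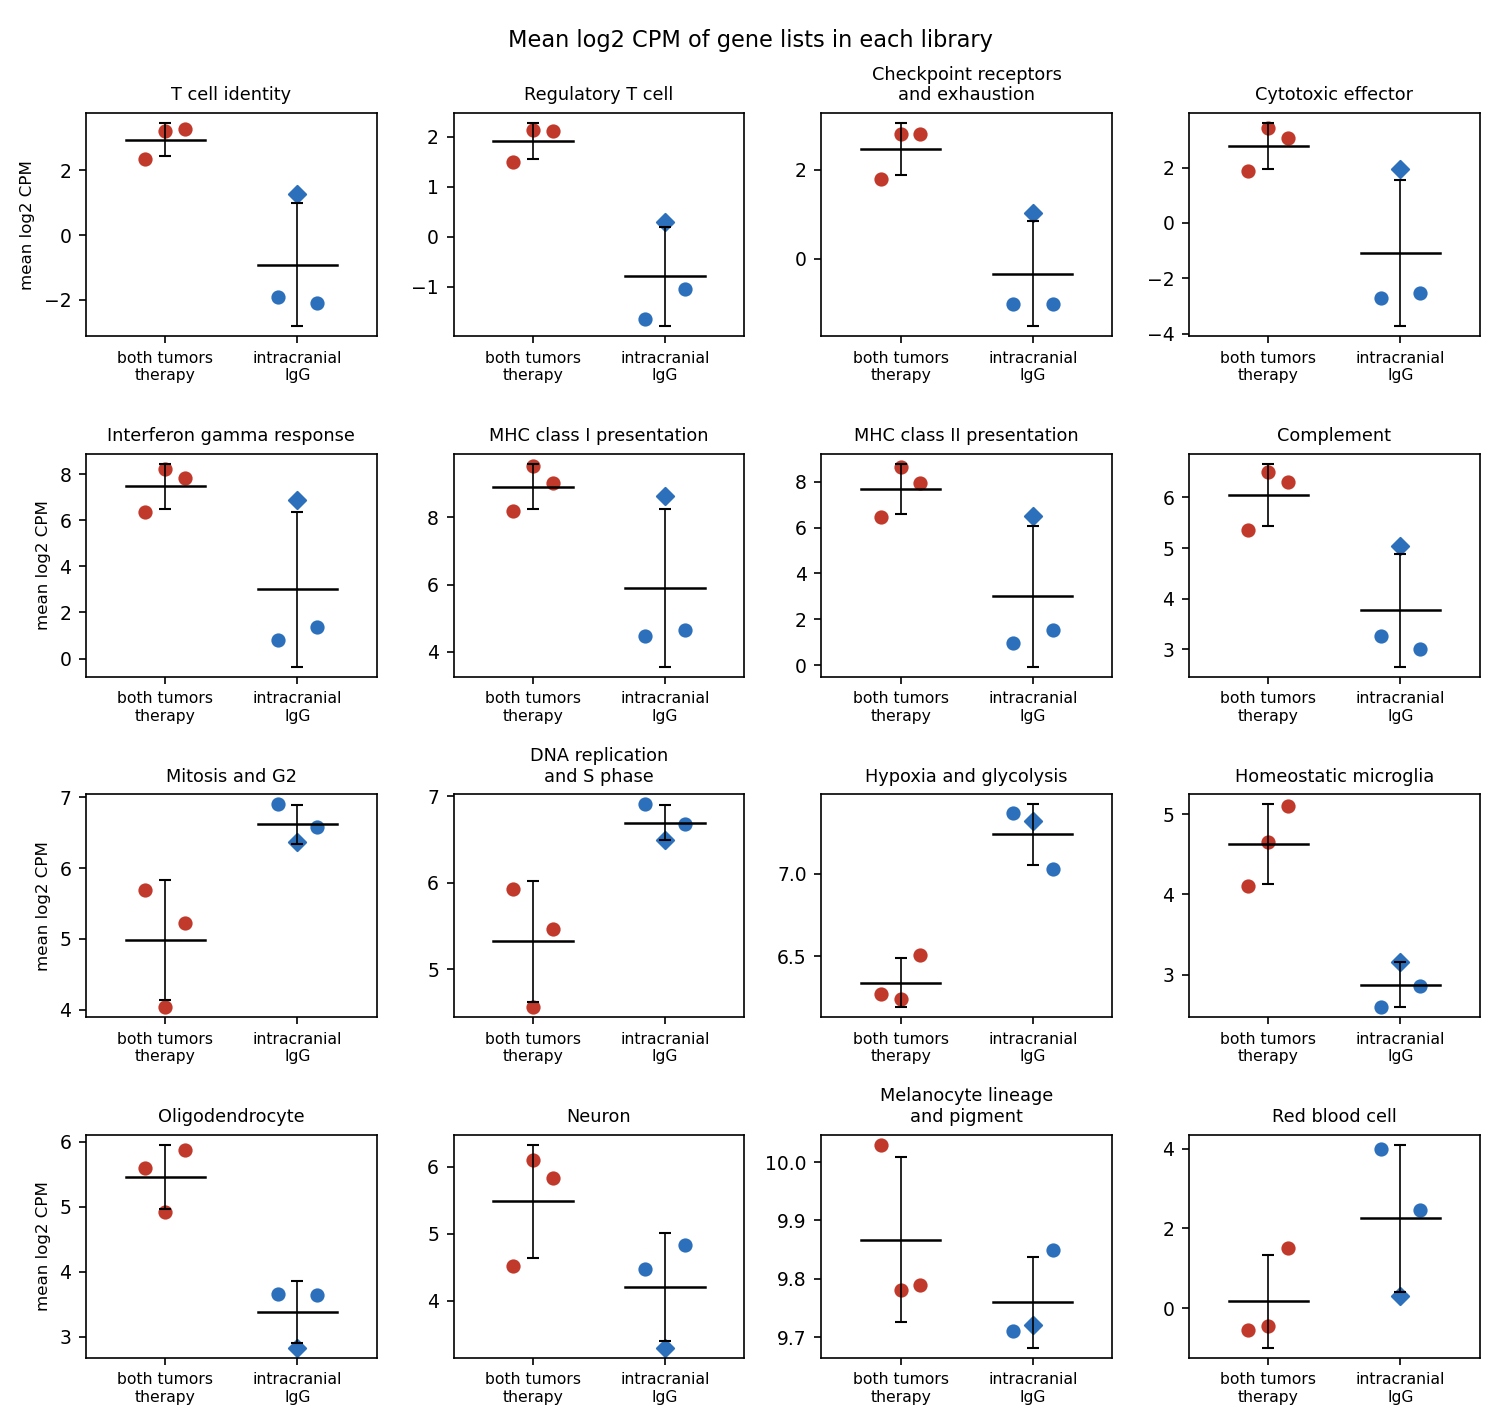
Mean log2 CPM (y axis) of 16 gene lists in each library, therapy with both tumors in red and IgG with the intracranial tumor alone in blue, with IgG replicate 2 as a diamond. Horizontal bars are group means and error bars are SD (n = 3). IgG replicate 2 lies near the therapy libraries in the interferon and MHC lists, for example 6.87 against 6.37, 8.24 and 7.82 in the interferon gamma list, and with its own group in the mitosis, hypoxia and microglia lists.

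As no gene passed, the named genes were those of smallest p among genes without overlap that averaged 1 CPM or more in either group, 12 in each direction, all at an edgeR adjusted p of 0.0537. DESeq2 called 22 of these 24 and gave no adjusted p for Ccr4 and Il1rl1, and limma voom called all 24. As the 24 were chosen by small p and no overlap in the same libraries, these calls follow largely from the choice. The higher set holds 2 receptors of the interleukin-1 family and a chemokine receptor. Ccr4, the receptor for CCL17 and CCL22 on type 2 helper and regulatory T cells (chr9:114490316-114504916), had 0.955, 1.29 and 0.827 CPM under therapy and 0.0527, 0.0516 and 0 CPM under IgG. It had 65 reads over the therapy libraries and 2 over the IgG libraries, a ratio of 29 with an interval of 7.71 to 244. Il1rl1, which encodes ST2, the receptor for interleukin-33 on regulatory T cells, mast cells and type 2 lymphoid cells (chr1:40429570-40465415), had 1.59, 1.49 and 0.965 CPM under therapy and 0.0527, 0.103 and 0.161 CPM under IgG (log2 fold change 3.6 ± 0.59). Its neighbour Il1rl2, the receptor for interleukin-36 (chr1:40324610-40367562), had 3.50, 2.74 and 3.77 CPM under therapy and 0.316, 0.774 and 0.215 CPM under IgG (2.92 ± 0.53).

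Partners of these receptors had smaller differences. Il33, the ligand of ST2, had 11.9, 6.91 and 11.9 CPM under therapy and 7.79, 5.94 and 6.45 CPM under IgG (0.60 ± 0.39, adjusted p 0.28). Il1rap, the accessory chain that both receptors use, differed by -0.11 ± 0.20 (adjusted p 0.689). These partners were named after their values were seen. Ccl22, a ligand of CCR4, had 5.77, 5.42 and 5.33 CPM under therapy and 0.0527, 2.89 and 0.0537 CPM under IgG (2.45 ± 1.16, adjusted p 0.159), with no overlap.

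Further genes of the higher set had varied known roles. Apol7c, an apolipoprotein L family member (chr15:77524852-77533316), had 3.77, 4.28 and 3.12 CPM under therapy and 0, 0.258 and 0.107 CPM under IgG (4.86 ± 0.90). Slc7a2, a transporter of arginine and other cationic amino acids (chr8:40862396-40922308), had 20.9, 25.3 and 16.1 CPM under therapy and 3.37, 5.83 and 2.58 CPM under IgG (2.40 ± 0.43). Psap, the precursor of the saposins that help degrade lipids in lysosomes (chr10:60277627-60302597), had 2216, 2855 and 2953 CPM under therapy and 964, 1398 and 1272 CPM under IgG (1.14 ± 0.20). The lack of overlap in these genes follows from how they were chosen. Fcgrt, the heavy chain of the neonatal Fc receptor, which recycles IgG, had 32.5, 39.1 and 37.4 CPM under therapy and 16.9, 23.1 and 15 CPM under IgG (0.99 ± 0.17). Differences were also below 1 log2 unit for Gstp2, a glutathione transferase (0.67 ± 0.11), Blcap (0.66 ± 0.12) and the histone methyltransferase gene Ezh1 (0.64 ± 0.12). Spop, a substrate adaptor of a ubiquitin ligase, differed by 0.52 ± 0.09. The small SEs of these genes follow from the choice by p. Tmem200b completed the set at 1.76 ± 0.33. Gstp2 has a near-identical neighbour in its family, so its reads may be shared.

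The lower set was led in p by Foxred2, a flavoprotein of endoplasmic reticulum quality control (chr15:77940522-77956722), at 8.0, 6.91 and 8.22 CPM under therapy and 17.6, 16.6 and 17.6 CPM under IgG (-1.16 ± 0.16). Tfrc, the transferrin receptor through which cells take up iron (chr16:32608920-32632794), had 171, 105 and 100 CPM under therapy and 367, 293 and 364 CPM under IgG (-1.45 ± 0.27). Aire, the autoimmune regulator known from the thymus (chr10:78030022-78043610), had 2.14, 0.995 and 1.47 CPM under therapy and 12, 9.5 and 7.95 CPM under IgG (-2.67 ± 0.49). Hoxa11os, transcribed opposite to the homeobox gene Hoxa11, had 1.32, 0.746 and 0.689 CPM under therapy and 3.79, 4.18 and 5.86 CPM under IgG (-2.32 ± 0.38). Hoxa11 itself, named after its values were seen, had 5.23, 1.44 and 2.80 CPM under therapy and 16.9, 9.70 and 16.1 CPM under IgG (-2.17 ± 0.51). These genes overlap on opposite strands (chr6:52244393-52249799 and chr6:52242106-52245810), and no source used here states whether counting used strand, so their reads cannot be told apart.

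The rest of the lower set had varied known roles. P3h2, a collagen prolyl hydroxylase, had 8.41, 5.82 and 6.20 CPM under therapy and 31.0, 20.1 and 31.7 CPM under IgG (-2.02 ± 0.36). Gpc6, a heparan sulfate proteoglycan of the cell surface, had 6.14, 4.58 and 5.60 CPM under therapy and 13.7, 10.6 and 17.6 CPM under IgG (-1.36 ± 0.25). Cdhr2, a cadherin known from epithelial brush borders, differed by -2.17 ± 0.38 and Syde2, a GTPase-activating protein, by -1.14 ± 0.20. Mre11a, a nuclease of DNA double-strand break repair, differed by -0.77 ± 0.13, Cdk2ap1, whose product binds the kinase CDK2, by -0.98 ± 0.17, and Zfp207, whose product acts at kinetochores, by -0.63 ± 0.11. Hnrnpdl, an RNA-binding protein gene, had 105, 96.1 and 85.8 CPM under therapy and 173, 130 and 164 CPM under IgG (-0.70 ± 0.12).

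**Figure D3:**
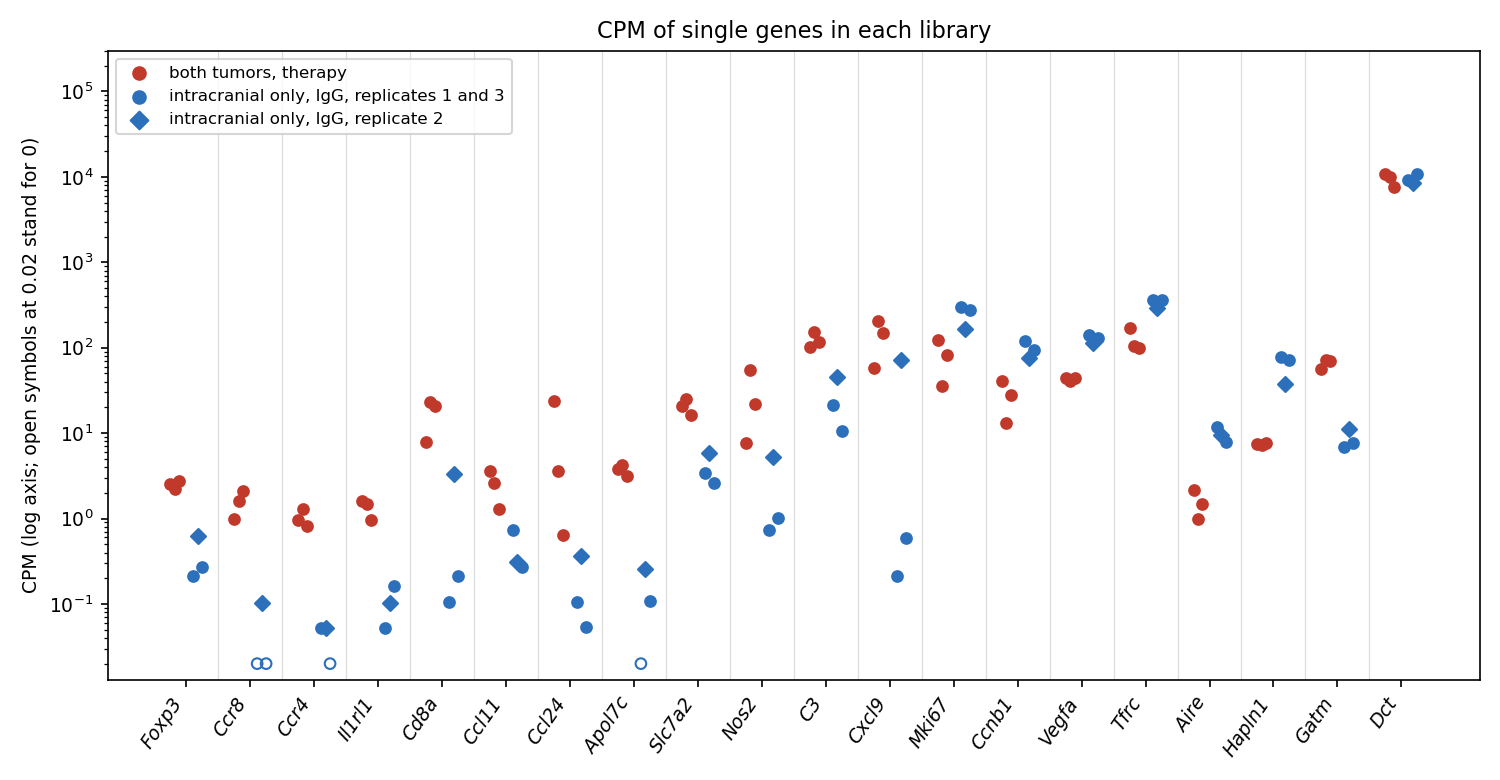
CPM (log axis) of 20 named genes in each library, therapy with both tumors in red and IgG with the intracranial tumor alone in blue, with IgG replicate 2 as a diamond and open symbols for a count of 0. Foxp3, Ccr4 and Il1rl1 lie above, and Mki67, Vegfa, Tfrc and Aire below, every IgG library, whereas Cxcl9 under IgG spans 0.211 to 71.0 CPM and Dct overlaps.

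Interferon and MHC class I genes were also higher in therapy libraries, but not without overlap. All 52 tested genes of MHC class I and of both interferon response lists had log2 fold changes above 0, from 0.77 to 3.06 with a median of 1.89. None of the 52 had groups that did not overlap, and edgeR, DESeq2 and limma voom each called 0 of them. For all 52, IgG replicates 1 and 3 lay below the lowest therapy library (25.5% of all genes did so). IgG replicate 2 lay at or above it for all 52 (10213 of all 15925 genes did so). Cxcl9, a chemokine induced by interferon gamma that attracts T cells, had 58.2, 207 and 148 CPM under therapy and 0.211, 71.0 and 0.591 CPM under IgG (2.52 ± 1.79, adjusted p 0.319). B2m, the light chain of MHC class I, had 2350, 5013 and 3977 CPM under therapy and 232, 2568 and 242 CPM under IgG (1.90 ± 0.98, adjusted p 0.189). In both genes, IgG replicate 2 lay about as high as therapy replicate 1 and an order of magnitude or more above its fellow IgG libraries.

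Leaving out IgG replicate 2 changed the size of these differences. That library was singled out by its high interferon and T cell levels, so larger differences in these lists follow from the choice. In that fit edgeR called 7.13% of all tested genes higher. The median of the interferon gamma list was then 7.36 log2 units, against 2.33 with it, and edgeR called 15 of 20 genes. That of the MHC class I list was 4.55, against 1.86, and edgeR called all 14. The type I interferon list had a median of 4.58, against 1.30, and 10 of 18 called. The mitosis list, by contrast, had medians of -1.63 without that library and -1.51 with it. Ifng, interferon gamma itself, had 3.73, 18.5 and 7.72 CPM under therapy and 0, 2.48 and 0 CPM under IgG (3.58 ± 1.74, adjusted p 0.17).

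**Figure D4:**
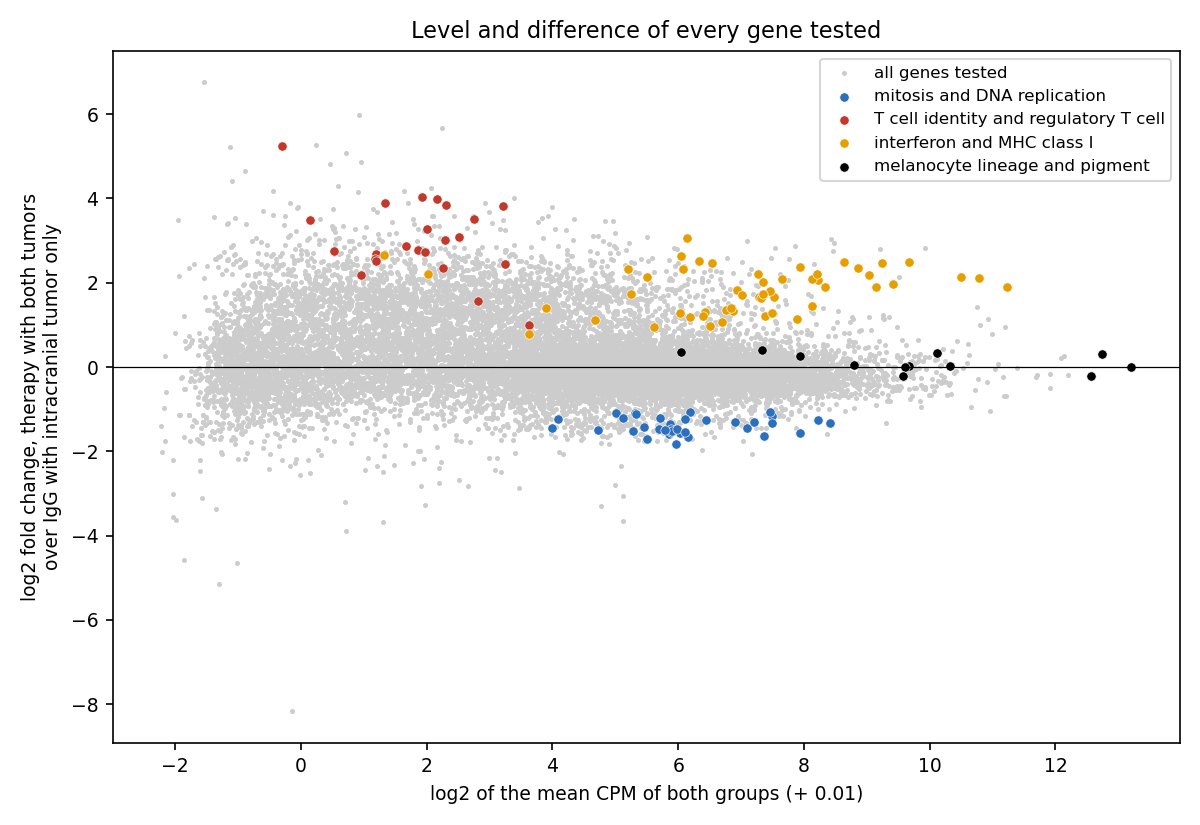
Log2 fold change (therapy with both tumors over IgG with the intracranial tumor alone, y axis) against the log2 of the mean CPM of both groups plus 0.01 (x axis) for the 15925 genes tested in grey, with 4 sets of list genes in colour. Proliferation genes lie between -1.82 and -1.06, interferon and MHC class I genes between 0.77 and 3.06, and pigment genes between -0.21 and 0.41.

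All 9 MHC class II genes had positive log2 fold changes with a median of 2.81, and 2 had no overlap, a share near the background. Of these, H2-Oa, a subunit of the class II modulator H2-O, had 0.727, 6.02 and 2.76 CPM under therapy and 0, 0.258 and 0 CPM under IgG (5.08 ± 1.13). Itgax, the CD11c integrin chain of dendritic cells and activated myeloid cells, had 37.1, 44.0 and 31.4 CPM under therapy and 1.16, 6.97 and 1.67 CPM under IgG (3.52 ± 0.90, adjusted p 0.0537). Of the 12 dendritic cell genes, 6 were higher and 1 lower with no overlap, and DESeq2 called 4 higher and 1 lower. Without overlap, 3 of 7 chemokine genes that attract T cells were higher, as were 3 of 10 that attract monocytes and eosinophils. Over all genes, 17.4% were higher without overlap and DESeq2 called 10.6% higher. DESeq2 called 2 genes of the first list and 3 of the second. Among the latter, Ccl4 (adjusted p 0.0393 in DESeq2) had groups that overlapped. The second list ranged widely, from -0.13 for Ccl9, 0.29 for Ccl2 and 0.48 for Ccl7, which attract monocytes, to 5.68 for Ccl24. Ccl11, the eosinophil chemokine eotaxin (chr11:82057823-82062955), had 3.64, 2.59 and 1.29 CPM under therapy and 0.737, 0.310 and 0.269 CPM under IgG (2.50 ± 0.49, adjusted p 0.0537). Ccl24, a further eotaxin, had 23.5, 3.63 and 0.643 CPM under therapy and 0.105, 0.361 and 0.0537 CPM under IgG (5.68 ± 1.40), with a wide spread among therapy libraries. Siglecf, the lectin that marks mouse eosinophils, had 2.45, 5.02 and 3.12 CPM under therapy and 0, 0.361 and 0.215 CPM under IgG (4.15 ± 1.08, adjusted p 0.0538), and it was the only gene of 10 on the eosinophil and mast cell list with enough reads to be tested.

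Of 15 monocyte and macrophage genes, 14 had log2 fold changes above 0, but 5 had no overlap and DESeq2 called 5. Over all genes, 17.4% were higher without overlap and DESeq2 called 10.6% higher. In 10 of the 15, IgG replicate 2 lay at or above the lowest therapy library. That share is near the share over all genes (10213 of 15925). Of 11 genes of resting microglia, 9 were higher with no overlap and DESeq2 called 7, and the list's mean log2 CPM was 4.11, 4.66 and 5.11 under therapy and 2.60, 3.16 and 2.86 under IgG. P2ry12, a purine receptor of microglia, had 6.77, 10.7 and 11.6 CPM under therapy and 1.63, 2.12 and 1.88 CPM under IgG (2.37 ± 0.63, adjusted p 0.0538). Of 13 complement genes, 8 had no overlap and DESeq2 called 9 higher. C3, the central complement component (chr17:57203970-57228136), had 103, 153 and 117 CPM under therapy and 21.3, 45.4 and 10.6 CPM under IgG (2.27 ± 0.52, adjusted p 0.0537). C1qc, a chain of the complement initiator C1q, had 183, 409 and 390 CPM under therapy and 24.1, 90.6 and 23.7 CPM under IgG (2.82 ± 0.75). In P2ry12, C3 and C1qc, IgG replicate 2 lay below every therapy library. It lay at or above the lowest one in 5 of the 13 complement genes, a smaller share than over all genes.

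Among single enzymes, Nos2, the inducible nitric oxide synthase (chr11:78920787-78960254), had 7.68, 54.3 and 22.2 CPM under therapy and 0.737, 5.26 and 1.02 CPM under IgG (3.58 ± 0.91, adjusted p 0.0537). Arg1, arginase 1, had 113, 117 and 53.9 CPM under therapy and 5.11, 57.0 and 3.49 CPM under IgG, so that IgG replicate 2 lay above therapy replicate 3 (2.11 ± 1.03, adjusted p 0.169). Gatm, an enzyme that makes a creatine precursor from arginine, named after its values were seen, had 57.0, 70.9 and 69.5 CPM under therapy and 6.79, 11.3 and 7.63 CPM under IgG (2.94 ± 0.67). In an edgeR fit of these 6 libraries alone, Gatm was 1 of 3 genes that passed, at 2.95 ± 0.23 (adjusted p 0.0378). The other genes were Vegfa at -1.57 ± 0.10 (adjusted p 0.0259) and Sulf2, a sulfatase of heparan sulfate, at -1.14 ± 0.09 (adjusted p 0.0378).

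Hypoxia genes were lower in the therapy group with both tumors than in the IgG group, and vessel genes were mixed. Of 14 hypoxia and glycolysis genes, 11 were lower with no overlap and DESeq2 called 7, with a list median of -0.92. Over all genes, 23.2% were lower without overlap and DESeq2 called 11.6% lower. Vegfa, the vascular growth factor (chr17:46016993-46032369), had 43.9, 41.2 and 43.9 CPM under therapy and 142, 115 and 130 CPM under IgG (-1.59 ± 0.47, adjusted p 0.0623 in edgeR with all 12 libraries). Car9, a carbonic anhydrase induced by hypoxia, had 12.1, 6.47 and 15.1 CPM under therapy and 65.7, 69.5 and 36.5 CPM under IgG (-2.35 ± 0.60). Eno1, the glycolytic enzyme enolase, had 1195, 857 and 1239 CPM under therapy and 2378, 2060 and 1958 CPM under IgG (-0.96 ± 0.22). The hypoxia list's mean log2 CPM was 6.27, 6.24 and 6.51 under therapy and 7.37, 7.32 and 7.03 under IgG. It was 6.49, 6.77 and 5.81 in IgG mice with both tumors and 6.28, 7.74 and 6.7 in therapy mice with the intracranial tumor alone. Among 13 endothelial and barrier genes the median was -0.02, with 4 higher and 3 lower without overlap (17.4% and 23.2% of all genes). Abcb1a, the drug efflux pump of brain capillaries, stood higher (1.59 ± 0.38), while Esm1, a marker of angiogenic tip cells, had 0.455, 0.0995 and 0.505 CPM under therapy and 8.90, 2.48 and 2.36 CPM under IgG (-3.66 ± 1.04, adjusted p 0.0568). Vcam1, the adhesion molecule for leukocyte entry, had 22.9, 58.8 and 66.8 CPM under therapy and 4.63, 10.5 and 3.44 CPM under IgG (3.0 ± 0.88, adjusted p 0.0605).

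Markers of the tumor line mostly overlapped between the groups, whereas every tested neuron, oligodendrocyte and astrocyte gene had a log2 fold change above 0. Most neuron genes overlapped all the same, and most oligodendrocyte and astrocyte genes did not. Of 12 pigment genes, 3 were higher and 1 lower with no overlap (17.4% and 23.2% of all genes). Their median was 0.04, and DESeq2, limma voom and edgeR each called 0. Dct, a melanin enzyme and the gene with the most reads in every library, had 10687, 9960 and 7625 CPM under therapy and 9088, 8544 and 10786 CPM under IgG (-0.01 ± 0.17, adjusted p 0.979). Oligodendrocyte genes were higher with no overlap in 11 of 12 cases, with a median of 2.11. The list's mean log2 CPM was 5.59, 4.92 and 5.88 under therapy and 3.66, 2.83 and 3.64 under IgG. Astrocyte genes had no overlap in 8 of 12 cases, with a median of 1.35. Neuron genes had no overlap in 1 of 13, with a median of 1.24. Their mean log2 CPM was 4.52, 6.10 and 5.84 under therapy and 4.47, 3.30 and 4.84 under IgG. In an edgeR fit with the neuron list's level as a covariate, the medians were 2.66 for the T cell list, 2.29 for the regulatory T cell list, -1.33 for mitosis and 1.32 for microglia, and 0 genes passed. Red cell genes, with 5 tested, had a median of -2.76, with mean log2 CPM of -0.56, -0.44 and 1.51 under therapy and 3.98, 0.30 and 2.47 under IgG, and their part in these results was not tested.

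The groups with a single factor allow the joint difference to be split in either of 2 ways, and the splits need not give the same shares. Through the IgG mice with both tumors, it is the difference of therapy over IgG with both tumors plus that of both tumors over the intracranial tumor alone under IgG. Through the therapy mice with the intracranial tumor alone, it is the difference of therapy over IgG with that tumor alone plus that of both tumors over the intracranial tumor alone under therapy. These differences share libraries. For Foxp3 the first split gave 2.43 (therapy) and 0.32 (extracranial tumor) log2 units, and the second -0.59 (therapy) and 3.34 (extracranial tumor). Mki67 gave -1.56 and -0.08 in the first split and 0.47 and -2.10 in the second. The share of each factor thus depended on the split for these genes. Vegfa gave -0.29 and -1.30 in the first split and -0.29 and -1.29 in the second, while Ccr4 gave 2.47 and 2.17, and 2.09 and 2.55. For Vegfa and Ccr4 the splits gave similar values, and errors of the parts are not given here. The gap between the splits is the interaction term described below. For Ccr4 it was 0.38 ± 1.91 log2 units (SE), too uncertain to tell whether its splits agree.

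An interaction term asks whether the joint difference departs from the sum of both single-factor differences, each taken against the intracranial-only IgG mice. Foxp3 had 0.111, 0.384 and 0.230 CPM in therapy mice with the intracranial tumor alone and 0.479, 0.152 and 0.744 CPM in IgG mice with both tumors, levels near those of the intracranial-only IgG mice. Its interaction was 3.02 ± 0.86 log2 units (adjusted p 0.0362 in edgeR). Mki67 had 307, 397 and 330 CPM in therapy mice with the intracranial tumor alone and 231, 299 and 178 CPM in IgG mice with both tumors, and its interaction was -2.03 ± 0.55 (adjusted p 0.0336). For these genes the mice with both factors were the group that stood apart. Of the 58 genes named by smallest p or by the panel, 31 had an interaction past an adjusted p of 0.05, where 3505 of all genes (22%) did. As 24 of the 58 were chosen by the p of the joint difference, which shares libraries with the interaction, nothing is read from that count. None of the 58 did in a fit with the neuron list as a covariate, nor without intracranial-only IgG replicate 2 or 3, either of therapy replicates 2 and 3, both-tumor IgG replicate 1, or any therapy library with the intracranial tumor alone. Vegfa ranged from 38.6 to 197 CPM in therapy mice with the intracranial tumor alone and from 33.7 to 69.3 CPM in IgG mice with both tumors, with an interaction of 0.01 ± 0.65 (adjusted p 0.995). Snap25, a synaptic protein, had 2.16, 0.384 and 0.507 CPM in therapy mice with the intracranial tumor alone, against 60.9, 228 and 207 CPM in therapy mice with both tumors, so the therapy mice with the intracranial tumor alone had little neuronal RNA.

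**Figure D5:**
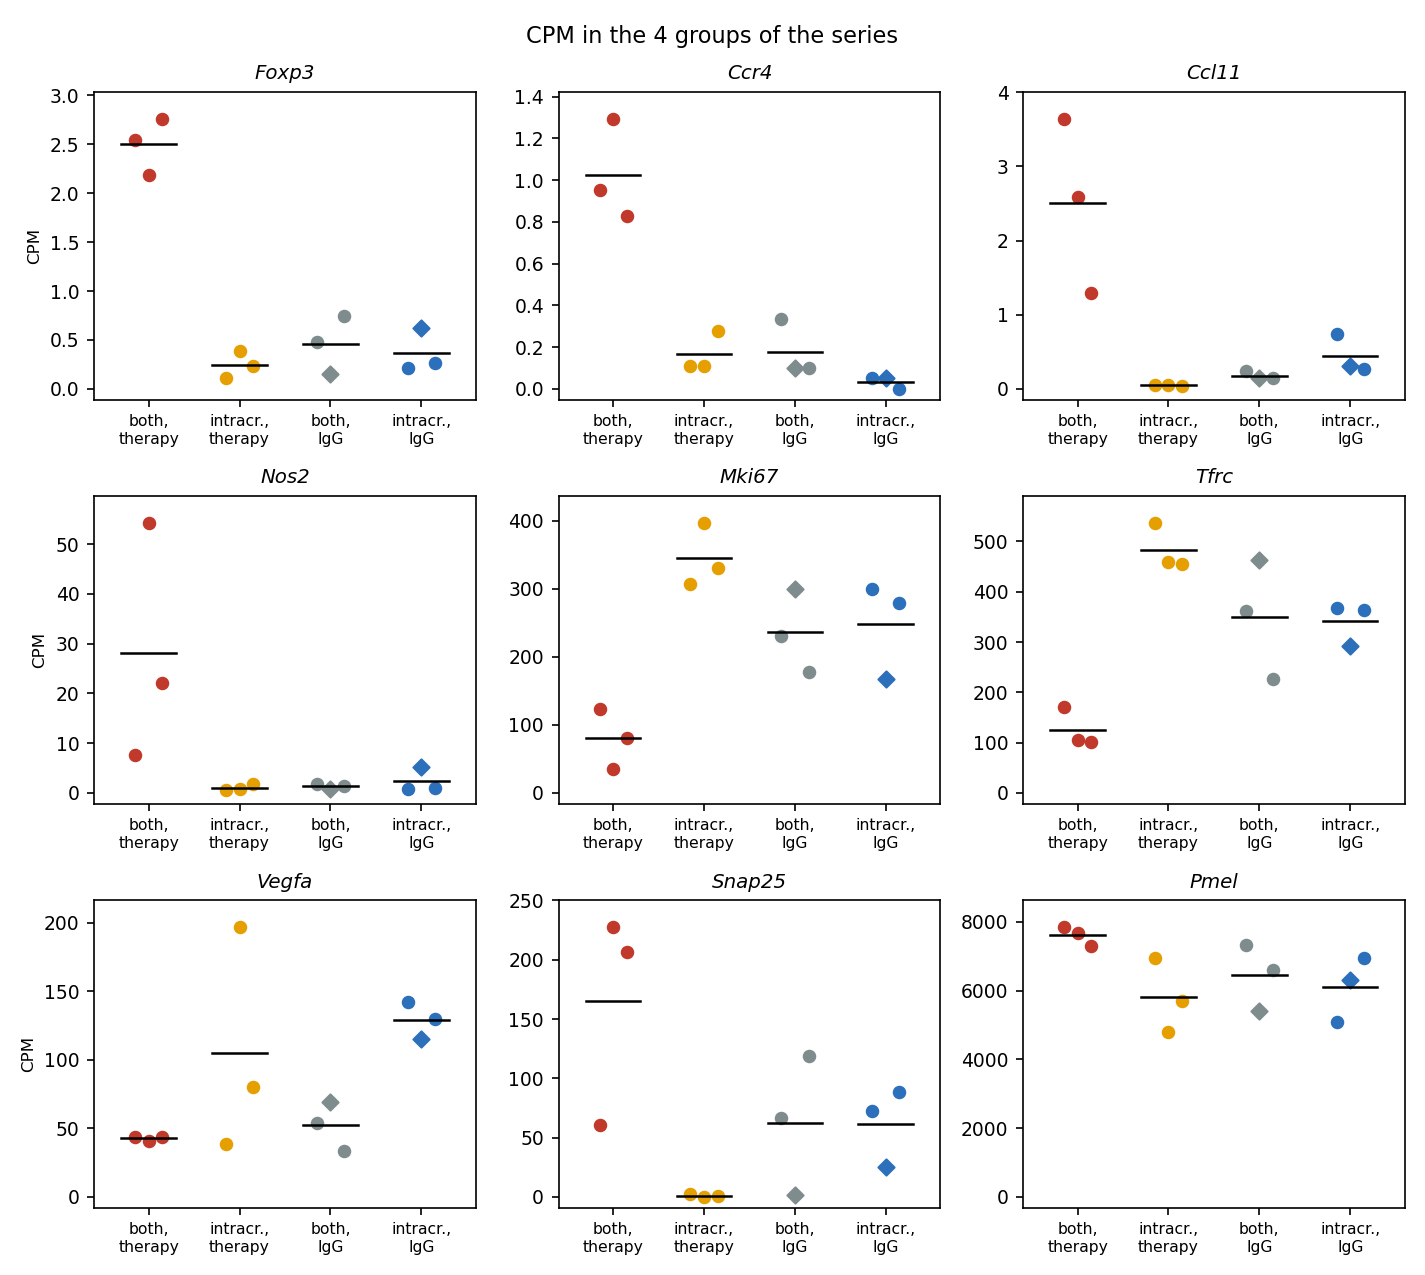
CPM (linear axis) of 9 genes in each library of the 4 groups, with group means as bars and replicate 2 of both IgG groups as diamonds. Foxp3, Nos2 and Ccl11 are high, and Mki67 and Tfrc low, in the mice with both tumors and therapy, while Vegfa is lower in both groups with an extracranial tumor than in the intracranial-only IgG group.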

How the data were processed

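RNA-seq of 12 intracranial tumors was analysed, of which the 6 libraries of the compared groups are reported. Per the submitters' processing notes, TopHat2 2.0.12 with Bowtie2 2.2.3 and HTSeq 0.6.1 were used with GRCm38/mm10. Neither the annotation release nor the use of strand is stated in these sources. The authors deposited read counts per gene and FPKM values for 47069 genes. In the 16062 genes with a read in every library, the deposited FPKM equalled the count divided by length and total within 1e-06. Groups came from the labels for tumor presence and treatment, and replicate numbers follow accession order and only name a sample.

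Counts were tested with edgeR 4.0.16 in R 4.3.3: TMM scaling, a filter at a minimum count of 10 that kept 15925 genes, 4 group means over all 12 libraries, the quasi-likelihood F test and Benjamini-Hochberg adjustment at 0.05. SE was taken as |log2 fold change| over the root of F. List levels are means of log2 CPM with a prior count of 2. Alternatives were other scaling (RLE), no filter, the compared groups alone, DESeq2 1.42.0, limma 3.58.1 voom, limma on log2(FPKM + 1) and log2(FPKM + 0.1), covariates for neuron or pigment genes, and leaving out each library. The fits were checked on simulated data.

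Named genes are the 12 higher and 12 lower of largest change past the threshold, filled up by smallest p where too few pass, up to 3 of smallest p in each of 41 lists, and a fixed panel. Members and lists were chosen with earlier results of these data known, and some further genes and all families by symbol were chosen after their values were seen. Gene coordinates are from GENCODE M21 (GRCm38). Intervals for read ratios cover counting error only.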

Additional observations from a re-analysis of the deposited data

Results flagged for a closer look

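For 31 of 58 genes the joint log2 difference departed from the sum of both single-factor differences by an interaction term in edgeR (adjusted p 0.0321 to 0.0475), as it did for 22% of all genes. Of the 58, 24 had been chosen by the p of the joint difference, which shares libraries with the interaction. Positive interactions, in log2 units, were 8.73 for Mog, 7.35 for Snap25, 6.93 for Apol7c, 6.69 for Ccl11, 5.56 for Nos2, 5.54 for Gfap, 4.63 for Arg1, 3.31 for Slc7a2, 3.18 for Tmem119, 3.10 for C3 and 3.02 for Foxp3. Smaller positive ones were 1.54 for Tmem200b, 1.42 for Psap, 1.03 for Gstp2, 0.94 for Blcap, 0.92 for Fcgrt, 0.74 for Spop and 0.64 for Ezh1. Negative interactions were -2.35 for Ccnb1, -2.27 for Cdhr2, -2.03 for Mki67, -1.98 for Tfrc, -1.88 for Top2a, -1.82 for Hoxa11os, -1.81 for P3h2, -1.31 for Gpc6, -1.21 for Foxred2, -1.10 for Mre11a, -0.95 for Syde2, -0.79 for Hnrnpdl and -0.62 for Zfp207. Mog, Snap25 and Gfap are markers of brain cells, and Snap25 was at most 2.16 CPM in therapy mice with the intracranial tumor alone.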

How the results depend on the processing

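Against 0 genes called by edgeR with all 12 libraries, the compared groups alone gave 3 calls (1 higher, 2 lower), DESeq2 3315 (1583 higher, 1732 lower), limma voom 1648 (642 higher, 1006 lower), log2(FPKM + 1) 2693 (1263 higher, 1430 lower) and log2(FPKM + 0.1) 1964 (699 higher, 1265 lower). RLE scaling, no filter and either covariate gave 0. Leaving out 1 library gave 0 to 4002 calls, 0 to 1770 higher and 0 to 2232 lower. Higher genes made up 47.8% of the calls in DESeq2, 39% in voom and 27.8% in edgeR without both-tumor IgG replicate 3. The 31 interactions came to 0 with the neuron covariate and to 0 to 31 without 1 library. The cause of these changes was not tested. Of 41 list medians, 37 kept their sign in all settings run. The exceptions were endothelial (-0.16 to 0.12), pigment (-0.07 to 0.16), hyaluronan (-0.22 to 0.62) and neuron genes (-0.14 to 1.76). Among named genes, Cd79a ran from -0.10 (without therapy replicate 3) to 0.93 over the fits without 1 library and Snap25 -0.36 with the neuron covariate. Dct was 0.03 with RLE and DESeq2, 0.01 with no filter, the compared groups alone and both FPKM fits, 0.09 without IgG replicate 3 and 0.12 without therapy replicate 3, with a range of -0.13 to 0.12 over the fits without 1 library. Mitf was -0.04 in voom, -0.01 in both FPKM fits and with the neuron covariate, -0.22 with the pigment covariate, -0.03 without IgG replicate 1 and -0.38 without therapy replicate 1, with a range of -0.38 to 0.21. No paired analysis was run, since the labels name no pairing of animals between groups.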

Other observations

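Gene families were read from symbols after a member's value had been seen, and are given as values beside the 17.4% of all genes higher and 23.2% lower without overlap. Of 20 Hnrnp genes, which encode proteins that package and splice RNA, 16 were lower in every therapy library than in every IgG library and 1 was higher, with a median log2 fold change of -0.52. Hnrnpa1 had 368, 233 and 293 CPM under therapy and 672, 501 and 586 CPM under IgG (-0.98 ± 0.19). Of 11 tested Srsf splicing factor genes, 7 were lower without overlap and 0 higher (median -0.46). Of 14 tested Hox genes, 7 were lower without overlap and 0 higher (median -0.57). Of 13 tested cathepsin genes, which encode mostly lysosomal proteases, 9 were higher without overlap and 0 lower (median 1.27). Ctsd had 2223, 2333 and 3168 CPM under therapy and 1412, 1609 and 1486 CPM under IgG (0.78 ± 0.17).

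Of 9 tested hyaluronan matrix genes, 2 were higher and 3 lower without overlap (median 0.40). Hapln1, which links hyaluronan to proteoglycans, had 7.55, 7.21 and 7.67 CPM under therapy and 77.7, 38.0 and 71.5 CPM under IgG (-3.06 ± 0.64, adjusted p 0.0537 in edgeR). Adam12, a metalloprotease gene named after its values were seen, had 86.2, 27.9 and 53.5 CPM under therapy and 266, 161 and 271 CPM under IgG (-2.06 ± 0.42). Cd276, the checkpoint ligand B7-H3, had 23, 19.4 and 22 CPM under therapy and 31.7, 39.7 and 44.8 CPM under IgG (-0.84 ± 0.16). Cd274, which encodes PD-L1, had 89.1, 385 and 256 CPM under therapy and 7.43, 75.7 and 8.86 CPM under IgG (2.99 ± 1.15, adjusted p 0.104).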
